A study of Mus musculus with 12 samples.

Results

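The genes described here encode the coagulation factors and the protease inhibitors that the liver secretes into plasma, with a few related plasma proteins. Probe sets were taken where the array platform's annotation gave exactly 1 gene symbol and that symbol was one of 35 listed genes. Of these, 33 genes had 40 probe sets between them, out of 12393 genes on the array with such a probe set. Cpb2 and Thpo had no probe set named here. All 33 genes passed the filter on dim signals, which left 7217 genes to test, and no mouse was at or under the floor of 4.84 signal units for any of them.

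The samples were livers of female C57BL/6 mice on Affymetrix arrays, 1 array per mouse and 3 separate mice in each of 4 groups. Vehicle mice received 100 µl of sesame oil under the skin, and testosterone mice 0.9 mg of testosterone in the same oil, 2 times a week for 3 weeks. Some livers were collected when treatment ended and the others some weeks after the injections had stopped. The sample labels give the withdrawal as 12 weeks, the series' design text as 3 weeks, so the later time is called withdrawal here without a length. The labels give neither the age of the mice nor any genetic change, and every mouse, controls included, was female and received injected oil. Tissue is whole liver, so fewer cells of a type and less RNA per cell cannot be told apart.

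Most clotting factors, their inhibitors and the proteins that dissolve clots are made by hepatocytes and circulate as inactive precursors or as inhibitors awaiting a protease. Clotting starts when factor VII meets tissue factor, or through the contact phase (factor XII, plasma kallikrein, kininogen, factor XI). It proceeds through factors IX, X and prothrombin, and ends in the fibrin made from the 3 fibrinogen chains. Antithrombin, heparin cofactor and the protein C pathway restrain it, and plasmin, checked by antiplasmin, removes the clot.

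The arrays were close to each other in overall level: medians were 20.1 to 22.6 signal units, and mice of a group correlated at 0.979 to 0.989 over all genes. Signals are linear and scaled per array, and the array's labelling and hybridisation differ between probe sets, so levels are compared only within a probe set. Sex-typed genes marked the treatment. At its end Hsd3b5, a male-type steroid dehydrogenase, averaged 1095 ± 150 in testosterone against 21.6 ± 20.5 in vehicle livers (SD, n = 3). Sult2a2, a female-type sulfotransferase, averaged 4.70 ± 3.69 against 2393 ± 368. Both genes still separated the groups after withdrawal. Hsd3b5 then averaged 778 ± 277 against 0.633 ± 0.241, with the vehicle values under the floor, and Sult2a2 13.1 ± 13.9 against 3058 ± 387. Summed hepatocyte markers (8 of 10 with a probe set) were 27822 to 29508 in vehicle and 28835 to 29526 in testosterone livers at the end of treatment. The sum hides opposite moves: at that time Asgr1 and Tat were lower in testosterone livers without overlap, and Hnf4a and Apob higher. Alb, Ttr, Apoa1 and Cps1 overlapped between the groups. One vehicle liver of that time, mouse 2, carried a strong acute phase signal, with Saa1 at 5042 against 379 and 247 in the other mice. Exocrine pancreas markers summed to 1436 and 547 in testosterone mice 2 and 1 after withdrawal against 30.8 in mouse 3, and to at most 72.2 in the other groups.

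At the end of treatment 12 of the 33 genes were lower in testosterone than in vehicle livers and 0 were higher, by limma at an adjusted p under 0.05. Over all genes tested, 8.01% were called lower and 9.42% higher, 17.4% in all. At an unadjusted p under 0.05 the count of members higher was also 0, against 18.1% of all genes. On each gene's brightest probe set, the steepest falls were in Serpina6 (corticosteroid-binding globulin, the serpin that carries glucocorticoids), F7 (factor VII) and Serpinf2 (antiplasmin). All 4 heavy chains of inter-alpha-trypsin inhibitor fell, while the fibrinogen chains, prothrombin, factor IX, protein C and plasminogen did not pass the test. The median log2 change was -0.21 over the 33 genes and 0.04 over all genes, and 29 of the 33 values were below 0. In 22 of the 33 (66.7%) every testosterone mouse was below every vehicle mouse, which held for 15.1% of all genes. In 0 genes was every testosterone mouse above every vehicle mouse, against 20.6% of all genes.

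**Figure D1:**
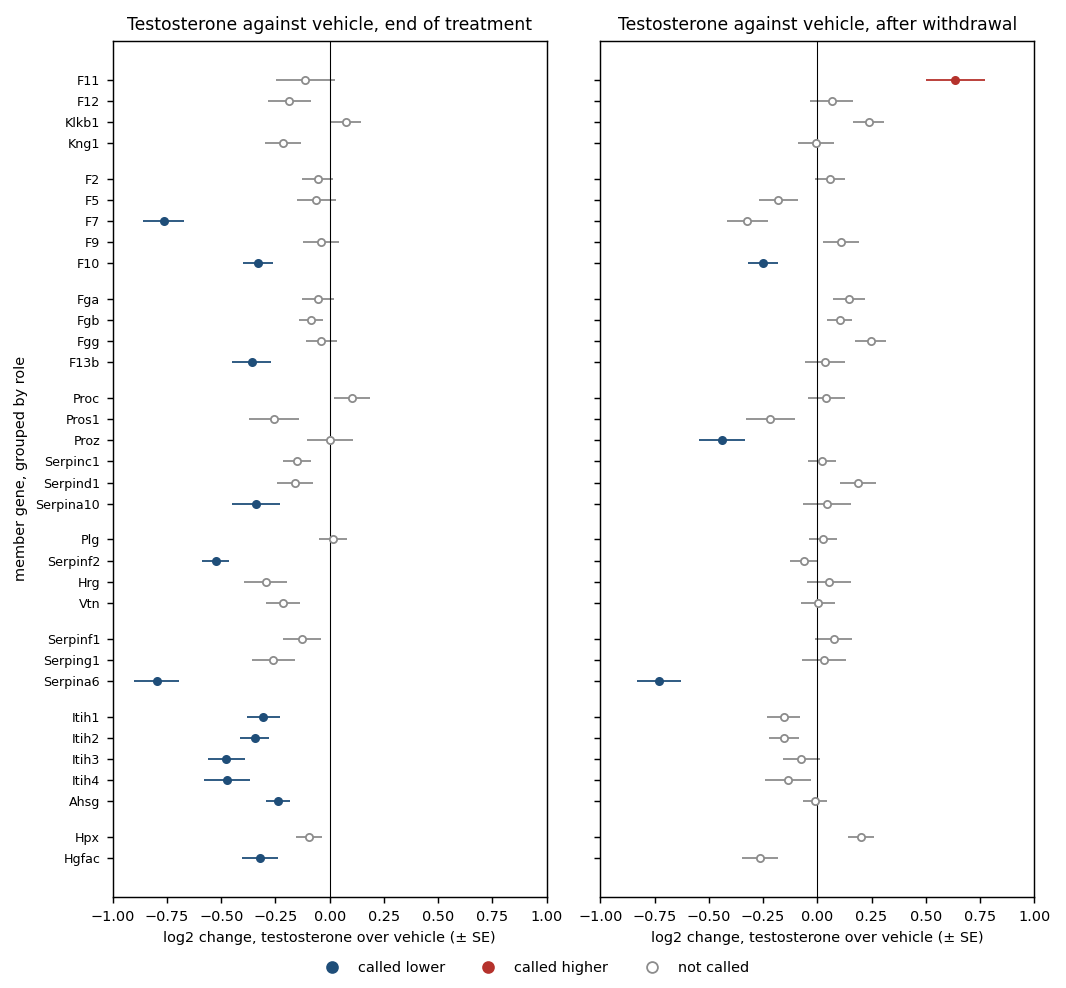
Log2 change of each of the 33 genes (rows, grouped by role) in testosterone over vehicle livers, with its standard error, at the end of treatment (left) and after withdrawal (right), 3 mice per group. Filled points passed limma's test. The 12 calls on the left all lie below 0, and after withdrawal 3 lie below and 1 above.

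Measures of RNA integrity moved with the treatment at that time. The ratio of the actin probe sets at the 3' end to those at the 5' end was 2.11 ± 0.0769 in testosterone and 1.52 ± 0.108 in vehicle livers at the end of treatment (SD, n = 3). For pyruvate carboxylase the same ratio was 18.8 ± 2.64 against 6.06 ± 1.35, and for Gapdh 0.93 ± 0.0254 against 0.763 ± 0.0316. The ranges did not overlap for any of these 3 transcripts (exact two-sided permutation p = 0.1 for each, the smallest that 3 against 3 mice allow). With the actin ratio as a term in the fit, 0 of the 12 calls were left (7 members had an unadjusted p under 0.05), and F7 then changed by -0.84 (adjusted p = 0.0613), Serpinf2 by -0.44 (0.15) and Serpina6 by -0.64 (0.223). In that fit 78 of the 7217 genes were called in place of 1258. Markers of Kupffer cells, the liver's macrophages, also moved: 6 of the 9 tested were lower, and their summed signal was 1844 to 2347 in testosterone against 2781 to 4357 in vehicle livers. Of 17 acute phase genes tested, 7 were lower and 1 was higher, against 8.01% and 9.42% of all genes. The actin ratio separated the groups fully at that time, so the fit with it cannot tell RNA integrity from treatment. The part of these shifts in the members' changes was not tested. The actin ratio overlapped between the groups after withdrawal, at 1.62 ± 0.179 with testosterone and 1.77 ± 0.154 with vehicle.

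Of the 5 vitamin K-dependent and cofactor coagulation factors, F7 and F10 fell at the end of treatment, against 8.01% of all genes called lower. F7, the protease that starts the extrinsic pathway, read 609, 707 and 634 in vehicle mice 1 to 3 and 393, 351 and 402 in testosterone mice 1 to 3. The highest testosterone value was far below the lowest vehicle value, and the fall was 1.70-fold (log2 -0.77 ± 0.09 SE, limma adjusted p = 9.08e-05). It was called without each of the 12 mice in turn. F10, the protease that converts prothrombin, read 1386, 1459 and 1383 in vehicle and 1134, 1071 and 1160 in testosterone livers on its brightest probe set. Here too the groups did not overlap, at 1.26-fold lower (log2 -0.33 ± 0.07, adjusted p = 0.00562). The call was lost with each array centred on its median (adjusted p = 0.0591) and with the mean of its 3 probe sets (log2 -0.19, adjusted p = 0.109). Prothrombin (F2) averaged 3146 ± 50.1 against 3271 ± 71.3, and the 95% interval of its log2 change was -0.20 to 0.09. F9, factor IX, averaged 995 ± 67.4 against 1023 ± 47.2 (interval -0.22 to 0.14), and F5, the cofactor of factor X, 1074 ± 43 against 1121 ± 26.8 (interval -0.26 to 0.13). These 3 intervals leave out a fall of the size seen for F7. F7, F10 and Proz lie in one stretch of chromosome 8 in RefSeq's mouse annotation, with 0 other coding genes between F10 and Proz.

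In the contact phase 0 of 4 genes were called at the end of treatment, against 17.4% of all genes. Of the 4, 1 had an unadjusted p under 0.05, Kng1. F12, factor XII, averaged 854 ± 101 in testosterone and 968 ± 28.3 in vehicle livers (log2 -0.19, interval -0.40 to 0.02). Kng1, the kininogen that yields bradykinin, averaged 3535 ± 244 against 4123 ± 557 (log2 -0.22, adjusted p = 0.0891), and the vehicle mean held 1 high mouse, number 2, at 4764. Kng1 can share signal with the near-identical Kng2. F11 averaged 326 ± 49.9 against 351 ± 32.3, and Klkb1, plasma prekallikrein, 1282 ± 51.7 against 1218 ± 53.1, with intervals that span 0 for both.

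None of the 3 fibrinogen chains was called at the end of treatment, against 17.4% of all genes, and 0 of the 3 had an unadjusted p under 0.05. Fga averaged 4012 ± 267 in testosterone and 4162 ± 301 in vehicle livers, Fgb 4405 ± 120 against 4673 ± 98.3, and Fgg 4018 ± 58.2 against 4131 ± 196. Their log2 intervals were -0.21 to 0.10, -0.21 to 0.04 and -0.19 to 0.12, so a fall larger than 0.21 lies outside all 3. F13b, the carrier subunit of the factor that crosslinks fibrin, read 1254, 1339 and 1260 in vehicle and 1062, 1001 and 942 in testosterone livers. That is 1.28-fold lower with no overlap (log2 -0.36 ± 0.09, adjusted p = 0.0142), but the call was lost without testosterone mouse 3 (log2 -0.32, adjusted p = 0.0555).

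Among the anticoagulants 1 of 6 was called, against 17.4% of all genes. Serpina10, the protein Z-dependent inhibitor of activated factor X, read 1546, 1948 and 1318 in vehicle and 1281, 1213 and 1262 in testosterone livers. The groups did not overlap, but the vehicle values were widely spread (log2 -0.34 ± 0.11, adjusted p = 0.0486). Serpina10's only probe set here can read other transcripts. The call was lost in 18 of 25 alternatives, among them those without any 1 mouse other than vehicle mouse 3 of that time and testosterone mouse 1 of the withdrawal time (adjusted p = 0.053 to 0.18). Without vehicle mouse 2, the liver with the acute phase signal, the change was -0.19 (adjusted p = 0.18). Antithrombin (Serpinc1) averaged 3940 ± 118 against 4370 ± 154 and heparin cofactor II (Serpind1) 1546 ± 5.3 against 1731 ± 88.6, without overlap and without a call (adjusted p = 0.126 and 0.199). Protein C (Proc) averaged 1435 ± 109 against 1335 ± 60.6, and its cofactor protein S (Pros1) 159 ± 13.4 against 190 ± 16.2 (adjusted p = 0.431 and 0.133). Protein Z (Proz) averaged 542 ± 43 against 541 ± 41.5 on its brightest probe set, but another probe set differed, as given further on.

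In fibrinolysis the call was for the inhibitor and not for the protease. Serpinf2, which encodes antiplasmin, read 2188, 2075 and 2009 in vehicle and 1444, 1444 and 1468 in testosterone livers. The testosterone mice lay close together and every one was far below the vehicle mice, a 1.44-fold fall (log2 -0.53 ± 0.06, adjusted p = 7.36e-05) that was called without each mouse in turn. Plasminogen (Plg) averaged 3658 ± 85.7 against 3623 ± 223, with an interval of -0.12 to 0.15. Hrg, histidine-rich glycoprotein, averaged 2249 ± 241 against 2752 ± 133 and Vtn, vitronectin, which holds the plasminogen activator inhibitor active, 3182 ± 74.7 against 3701 ± 305. Both lay below the vehicle mice without overlap but just missed the threshold (log2 -0.30 and -0.21, adjusted p = 0.0558 and 0.0739).

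Serpina6 had the largest change at the end of treatment among the members' brightest probe sets. It read 2024, 2121 and 2391 in vehicle and 1244, 1151 and 1364 in testosterone livers. All testosterone mice lay below all vehicle mice, and the level was 1.74-fold lower (log2 -0.80 ± 0.10, adjusted p = 0.000112), a call kept without each mouse in turn. Serping1, the inhibitor of the first complement proteases and of plasma kallikrein, averaged 2554 ± 89 against 3080 ± 469 (log2 -0.26, adjusted p = 0.0847), with vehicle mouse 2 high at 3615. Serpinf1, a serpin that inhibits new vessels and no protease, averaged 2299 ± 145 against 2512 ± 153 on its brightest probe set (adjusted p = 0.329).

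**Figure D2:**
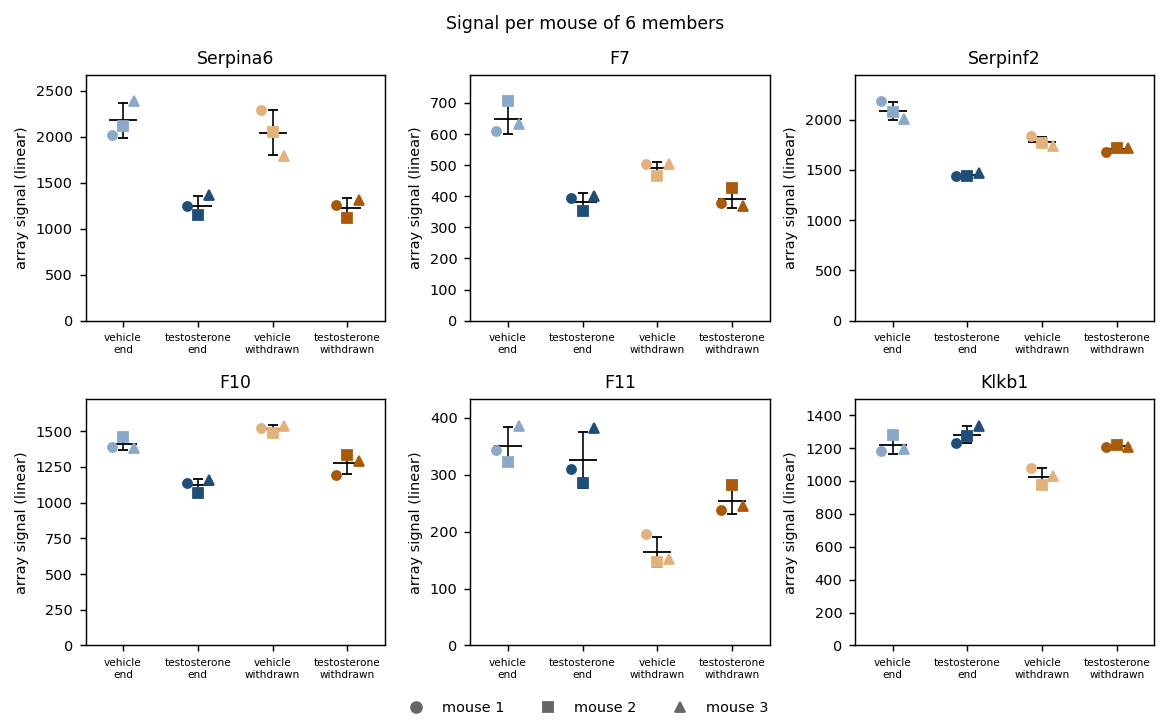
Array signal (linear, from 0) of Serpina6, F7, Serpinf2, F10, F11 and Klkb1 in each mouse of the 4 groups. Marker shapes are mice, the horizontal bar is the mean and the error bar the SD of 3 mice. Serpina6 is lower in both testosterone groups, Serpinf2 mainly at the end of treatment, and F11 is lowest in vehicle livers after withdrawal.

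All 5 genes of the group made up of the inter-alpha-trypsin inhibitor heavy chains and fetuin fell at the end of treatment, against 8.01% of all genes called lower. Their median log2 change was -0.35. Itih1, Itih2 and Itih3 are secreted bound to the small protease inhibitor bikunin and can be passed on to hyaluronan in the matrix. Itih3 read 2401, 2826 and 2182 in vehicle and 1786, 1783 and 1726 in testosterone livers (1.39-fold lower, log2 -0.48, adjusted p = 0.00167). Itih4, the acute phase member of the family, read 3593, 3911 and 3659 against 2948, 3002 and 2169 (log2 -0.47, adjusted p = 0.00771). In both genes the groups were separate, with vehicle mouse 2 the highest and testosterone mouse 3 the lowest. Itih2 read 1994, 2202 and 1994 against 1608, 1573 and 1687 (log2 -0.35, adjusted p = 0.00323), and Itih1 1270, 1396 and 1209 against 1068, 1013 and 1048 (log2 -0.31, adjusted p = 0.0138). The falls were smaller here and again free of overlap. Ahsg, fetuin-A, which keeps calcium phosphate in solution, read 4437, 4222 and 4314 against 3645, 3611 and 3755 (log2 -0.24, adjusted p = 0.00951). The Itih1 call was lost without testosterone mouse 2 (adjusted p = 0.0562), and the calls of Itih1 and Ahsg were lost with arrays centred on their medians. Itih4 was lost with no filter on dim genes (adjusted p = 0.0531) and Ahsg with no variance trend (0.07).

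**Figure D3:**
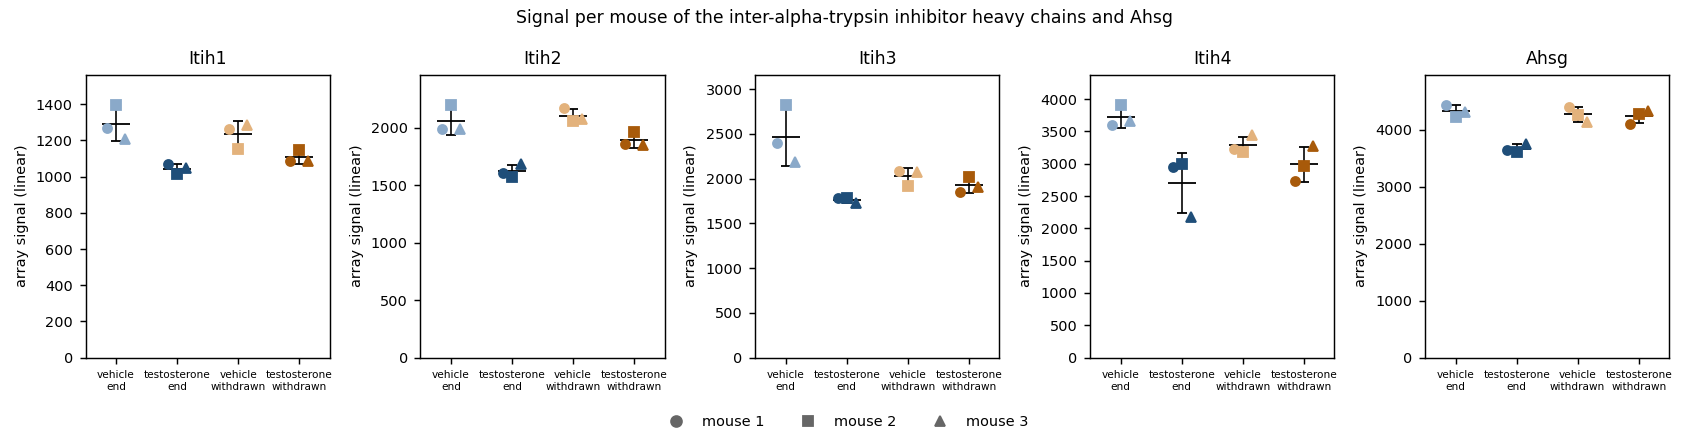
Array signal (linear, from 0) of Itih1, Itih2, Itih3, Itih4 and Ahsg in each mouse of the 4 groups, with the mean and SD of 3 mice. In every panel the 3 testosterone mice at the end of treatment lie below the 3 vehicle mice of that time, and after withdrawal the testosterone means are 1107, 1893, 1925, 2994 and 4234.

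Itih1, Itih3 and Itih4 neighbour each other on chromosome 14 with 0 other coding genes between Itih1 and Itih3 or between Itih3 and Itih4, while Itih2 lies on chromosome 2. The 250 bases before the start of each, on RefSeq's GRCm38.p6, are shown because these 4 genes fell together. Capitals mark a match to TTCNNNGAA, the sequence bound by STAT factors.

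Itih1 (chr14:30943290-30943539, minus strand): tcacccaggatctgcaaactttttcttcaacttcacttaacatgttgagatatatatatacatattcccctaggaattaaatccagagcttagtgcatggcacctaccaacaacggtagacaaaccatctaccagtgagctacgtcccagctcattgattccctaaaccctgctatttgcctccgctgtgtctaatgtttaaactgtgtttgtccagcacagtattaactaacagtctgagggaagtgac
Itih3 (chr14:30923588-30923837, minus strand): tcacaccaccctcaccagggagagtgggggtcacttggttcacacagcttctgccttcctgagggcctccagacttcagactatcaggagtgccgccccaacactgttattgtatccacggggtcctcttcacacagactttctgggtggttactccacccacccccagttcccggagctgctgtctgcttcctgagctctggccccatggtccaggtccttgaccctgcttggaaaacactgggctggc
Itih4 (chr14:30886226-30886475, plus strand): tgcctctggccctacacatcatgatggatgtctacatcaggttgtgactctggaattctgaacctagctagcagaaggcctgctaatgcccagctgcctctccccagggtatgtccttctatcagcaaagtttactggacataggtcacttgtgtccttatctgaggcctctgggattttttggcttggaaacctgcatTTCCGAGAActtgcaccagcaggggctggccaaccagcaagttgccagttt
Itih2 (chr2:10130684-10130933, minus strand): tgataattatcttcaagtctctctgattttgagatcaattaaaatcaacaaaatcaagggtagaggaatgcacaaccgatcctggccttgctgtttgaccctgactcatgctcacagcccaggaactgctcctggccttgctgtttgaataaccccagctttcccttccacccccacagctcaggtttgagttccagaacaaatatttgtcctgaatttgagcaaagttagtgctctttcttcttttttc

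Only the Itih4 window of these 4 held a match, 51 to 43 bases before the start. In all, 6 motifs were searched on both strands in the promoters of 29 listed genes: TTCNNNGAA, CTGGGAA (the interleukin response element of fibrinogen genes), CAAAGTCCA (HNF4), TTGCGCAA (C/EBP) and the motifs of HNF1 and of the androgen receptor. TTCNNNGAA was found in 6 of 29 (20.7%), against 7.18% of the 27025 promoters of all genes, and CTGGGAA in 3 of 29 (10.3%) against 9.08%. The other motifs had 0 matches in these windows, but they are rare in all promoters. HNF4 was found in 0.381% and C/EBP in 0.17% of the 27025, HNF1 in 2 and the androgen receptor motif in 1. Their absence from 29 windows therefore says nothing about these genes. A match is a description of the letters and not of binding. Serpina6, Serpina10, Kng1, Plg, Proc and Serping1 had no window in the table used.

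Of the remaining genes, Hgfac, the protease that activates hepatocyte growth factor, read 839, 814 and 819 in vehicle and 676, 699 and 609 in testosterone livers at the end of treatment. The groups were separate (log2 -0.32 ± 0.08, adjusted p = 0.0154), but the call was lost without vehicle mouse 1 (adjusted p = 0.0529) or testosterone mouse 3 (log2 -0.26, adjusted p = 0.0657), or with arrays centred on their medians. Hpx, hemopexin, the carrier of free heme, averaged 3882 ± 166 against 4144 ± 66.2 (log2 -0.09, interval -0.22 to 0.03).

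Where a gene had several probe sets, they did not always move alike. For Proz, the probe set other than the brightest read 548, 454 and 492 in vehicle and 241, 190 and 220 in testosterone livers at the end of treatment. That is less than every vehicle mouse by a wide margin, 2.30-fold lower in a fit of all probe sets (log2 -1.20, adjusted p = 0.000124), while the brighter probe set changed by 0.00. After withdrawal the order was turned: the brighter probe set was lower (log2 -0.44, adjusted p = 0.0294) and the other changed by -0.10. Serpinf1 showed the same kind of split at the end of treatment, with log2 -0.67 on its dimmer probe set (adjusted p = 0.00633) and -0.13 on its brighter one. The dimmer F10 probe sets changed by -0.06 and -0.18 at the end of treatment and by -0.26 and -0.42 after withdrawal. The last of them was called (adjusted p = 0.0245), on a probe set that can read other transcripts. The second probe sets of F5, Kng1 and Vtn were not called at either time. Which transcripts these probe sets read is not given in the sources used here, so calls on Proz and Serpinf1, and on F10 at the end of treatment, hold for 1 probe set each. After withdrawal all 3 F10 probe sets changed downwards, and in the fit of all probe sets the brightest one was not called (-0.25, adjusted p = 0.0575).

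**Figure D4:**
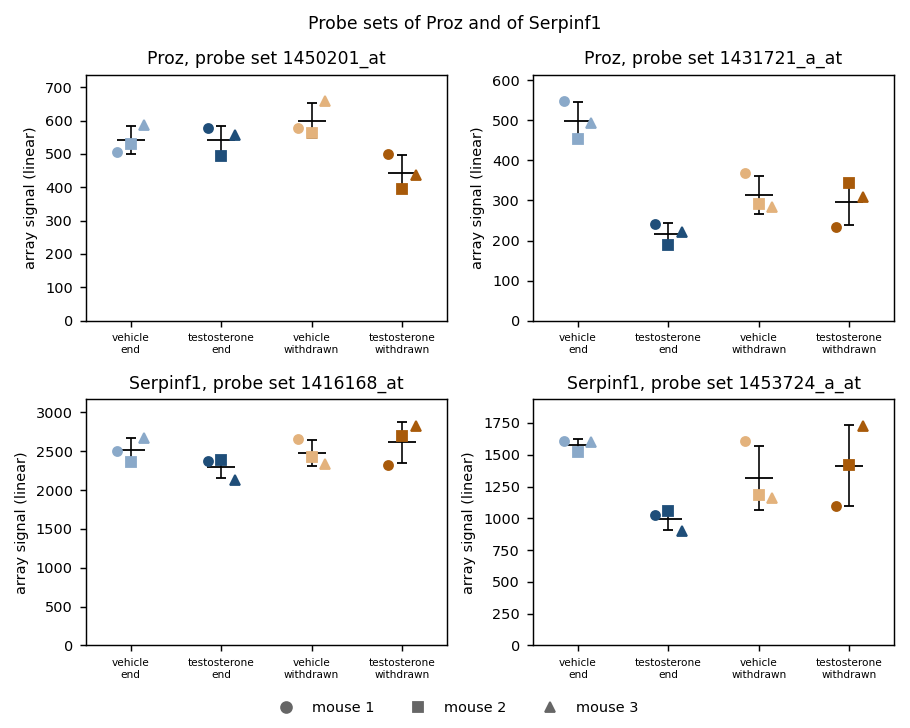
Array signal (linear, from 0) of both Proz and both Serpinf1 probe sets in each mouse of the 4 groups, with the mean and SD of 3 mice. On the right, the dimmer probe set of each gene is lower in the 3 testosterone mice at the end of treatment, and on the left the brighter one differs less or not at all.

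After withdrawal 3 of the 33 genes were lower in testosterone livers (3.26% of all genes) and 1 was higher (2.74%), against 6% of all genes in either direction. Serpina6 was again lower, Proz and F10 were lower, and F11, the protease that activates factor IX, was higher. The median log2 change was 0.03 over the 33 genes and -0.04 over all genes. The members' median was 0.11 with arrays centred on their medians and -0.09 with quantile normalization, so its sign depended on scaling. With quantile normalization 1 member was called higher and 5 lower. In 9 genes (27.3%) all testosterone mice were below all vehicle mice, against 14.7% of all genes, and in 6 (18.2%) above, against 11.2%. Of the 12 genes called at the end of treatment, Serpina6 and F10 were called after withdrawal as well.

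Serpina6 read 2289, 2055 and 1794 in vehicle and 1261, 1114 and 1313 in testosterone livers after withdrawal. Every testosterone mouse was below every vehicle mouse, at 1.66-fold lower (log2 -0.73 ± 0.10, adjusted p = 0.000388). This was the member called after withdrawal in all 26 alternatives, including the fit with the actin ratio. Leaving out testosterone mice 1 and 2, which carried the pancreatic enzyme signal, kept only 1 mouse in that group (log2 -0.63). The size of the change differed between the times by 0.07 (95% interval -0.24 to 0.37).

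F11 read 195, 146 and 153 in vehicle and 237, 282 and 245 in testosterone livers after withdrawal. The groups did not overlap and the testosterone level was 1.55-fold higher (log2 0.64 ± 0.14, adjusted p = 0.0104). At the end of treatment both groups had been higher, at 343, 323 and 387 in vehicle and 310, 286 and 382 in testosterone livers. The call was lost without vehicle mouse 2 (log2 0.56, adjusted p = 0.0611), vehicle mouse 3 (0.59, 0.053) or testosterone mouse 2 (0.56, 0.0563). An unfiltered fit (0.0599) and one holding the actin ratio (0.0563) ended it as well. With both testosterone mice with pancreatic enzyme signal left out, the change was 0.59, on 1 remaining mouse of that group. Klkb1, which lies next to F11 on chromosome 8 and encodes the related prekallikrein, read 1079, 974 and 1028 in vehicle and 1204, 1221 and 1204 in testosterone livers. It too was separate and higher but not called (log2 0.24, adjusted p = 0.0629).

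Proz on its brightest probe set read 576, 563 and 659 in vehicle and 499, 393 and 436 in testosterone livers after withdrawal, without overlap (1.36-fold lower, log2 -0.44 ± 0.11, adjusted p = 0.0226). The call was lost without vehicle mouse 3 (log2 -0.37, adjusted p = 0.118), testosterone mouse 2 (-0.36, 0.114) or testosterone mouse 3 (-0.43, 0.0762). Median centring (0.0906) and the actin ratio (0.105) ended it too. With testosterone mice 1 and 2 both left out, Proz changed by -0.46, on 1 remaining mouse of that group. F10 read 1524, 1488 and 1539 in vehicle and 1196, 1335 and 1295 in testosterone livers, again separate (log2 -0.25 ± 0.07, adjusted p = 0.0464). That call was lost in 18 of 26 alternatives, among them those without any 1 mouse other than vehicle mouse 2 of the end of treatment (0.0526 to 0.149). With testosterone mice 1 and 2 both left out, F10 changed by -0.23. Leaving out single mice left between 1 and 5 of the members called after withdrawal: 1 without vehicle mouse 3 or testosterone mouse 2, and 2 without vehicle mouse 2 or testosterone mouse 3.

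Several genes came near the threshold at this time without passing it. F7 read 502, 466 and 503 in vehicle and 380, 428 and 369 in testosterone livers, separate at log2 -0.32 (adjusted p = 0.0579). Hgfac changed by -0.26 (adjusted p = 0.0722), Fgg by 0.25 (0.0587) and Hpx by 0.20 (0.0587). The inter-alpha-trypsin inhibitor heavy chains and Ahsg changed by -0.16 to -0.01 and none was called. In Itih1 and Itih2 every testosterone mouse was still below every vehicle mouse, as in 14.7% of all genes, while Itih3, Itih4 and Ahsg overlapped. Serpinf2 averaged 1706 ± 26.3 against 1781 ± 48, also without overlap. Its interval was -0.20 to 0.07, which leaves out its fall at the end of treatment.

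The size of the testosterone effect differed between the times for 1 of the 33 genes, Serpinf2, while 0.79% of all genes were called for a difference in that direction, 1.4% in the other and 2.19% in all. Serpinf2's log2 change moved by 0.46 ± 0.09 from the end of treatment to withdrawal (adjusted p = 0.0199). With the actin ratio in the fit the value was 0.35 and the call was lost (adjusted p = 0.965). It was lost in 8 of 26 alternatives, the others being no variance trend (0.0755), the replicate block (0.0554), and 0.0506 to 0.0699 without vehicle mouse 1 or testosterone mouse 2 at the end of treatment, or vehicle mouse 2 or 3 or testosterone mouse 2 after withdrawal. F11 followed with a difference of 0.75 ± 0.19 (adjusted p = 0.0541). For 30 of the 33 genes the difference was above 0, with a median of 0.20 against -0.07 over all genes. The members' median was 0.26 with arrays centred on their medians and 0.11 with quantile normalization. Most changes did not pass the test and so were not shown to differ between the times.

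The groups were also compared across time within each treatment. These comparisons share their mice with those above, so the values are given side by side and not as support for each other. In vehicle livers 7 genes were lower at withdrawal than at the earlier time (6.83% of all genes) and 0 were higher (11%), by limma's adjusted p. At an unadjusted p under 0.05, 0 were higher too, against 19.8% of all genes. In 11 genes the later mice were all below the earlier ones (33.3%, against 13.5% of all genes) and in 1 above (3.03%, against 21.7%). F11 had the largest change, 2.14-fold lower (log2 -1.10 ± 0.14, adjusted p = 0.000132), called in all 26 alternatives. F7 changed by -0.40 (adjusted p = 0.0104), Serpina10 by -0.40 (0.0233), Serpind1 by -0.32 (0.0173), Itih3 by -0.28 (0.036), Klkb1 by -0.25 (0.0281) and Serpinf2 by -0.23 (0.0214). In the fit used here the vehicle level itself thus differed between the times for these 7 genes. Other signals moved with it: 7 of the 9 Kupffer cell markers tested were lower, with a summed signal of 2781 to 4357 and then 1378 to 2561, and 5 of 17 acute phase genes were lower. The pyruvate carboxylase ratio went from 4.57 to 7.20 at the earlier time to 9.03 to 17.0 at withdrawal without overlap, while the actin ratio overlapped (1.44 to 1.64 and 1.60 to 1.89). With the actin ratio in the fit 1 of the 7 calls, F11, was left. The part of the other signals in these changes was not tested. Without vehicle mouse 2 of the end of treatment 3 genes were called, and Serpina10 changed by -0.25 (0.0799), Itih3 by -0.18 (0.136), Serpind1 by -0.28 (0.0567) and Klkb1 by -0.21 (0.0812). Without vehicle mouse 2 of the withdrawal time 1 was called, F11, and without mouse 3 of that time 2 were. Without vehicle mouse 1 of the end of treatment, Serpinf2 (0.0817) and Itih3 (0.0651) were lost. Centring arrays on their medians moved the median change of all genes from 0.06 to -0.04 and left 8 of the 33 genes called lower.

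In testosterone livers 7 genes were higher after withdrawal than at the end of treatment (5.57% of all genes) and 0 were lower (5.31%), by limma's adjusted p. At an unadjusted p under 0.05, 2 were lower, F11 and Proz, against 12.9% of all genes. The later mice were all above the earlier ones in 12 genes (36.4%, against 15% of all genes) and all below in 2 (6.06%, against 16.1%). All 3 fibrinogen chains were among the 7 called, with Serpinf2 (log2 0.23, adjusted p = 0.0285), Itih2 (0.22, 0.047), Hpx (0.22, 0.0283) and Ahsg (0.21, 0.0269). Fga read 3705, 4138 and 4192 at the end of treatment and 4760, 4746 and 5317 after withdrawal (log2 0.30 ± 0.07, adjusted p = 0.0166). Fgg read 3952, 4042 and 4061 and then 4282, 4863 and 5263 (0.25, 0.0368), and Fgb 4277, 4516 and 4420 and then 4754, 5062 and 5311 (0.19, 0.0407). All 3 chains were separate between the times, by at most 1.23-fold. The Itih2 call was lost in 19 of 26 alternatives. The median of the summed hepatocyte markers went the same way, though the ranges overlapped. They were 28835 to 29526 (median 29333) at the end of treatment and 29159 to 34661 (median 33053) after withdrawal. Of the 8 hepatocyte markers tested, 1 was called higher and 0 lower. Alb, albumin, read 5013, 5267 and 5009 and then 4872, 5667 and 6052, so the later mouse 1 was below every earlier mouse. The actin ratio was 2.03 to 2.19 and then 1.47 to 1.82, without overlap. With it in the fit 0 of the 7 calls were left (1 member at an unadjusted p under 0.05). As the ratio separated the times fully, that fit cannot tell RNA integrity from time. The part of the hepatocyte markers in these changes was not tested. The 7 calls depended on scaling: 0 were left with arrays centred on their medians (3 members at an unadjusted p under 0.05) or with quantile normalization (6). They also depended on single mice, with 0 left without testosterone mouse 1 at the end of treatment (11 at an unadjusted p under 0.05) or mouse 3 after withdrawal (9), 1 without mouse 3 at the end or mouse 2 after withdrawal, 2 without mouse 2 at the end and 4 without vehicle mouse 3 after withdrawal. Without both mice with pancreatic enzyme signal, which left 1 mouse after withdrawal, Fga changed by 0.41 and Fgg by 0.39.

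**Figure D5:**
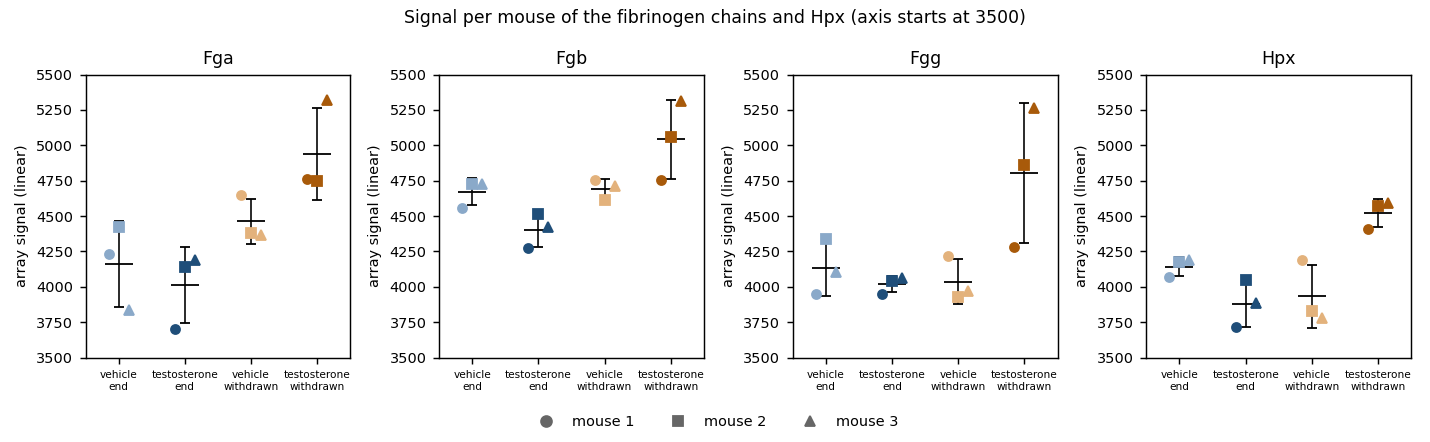
Array signal (linear, axis from 3500 to 5500) of Fga, Fgb, Fgg and Hpx in each mouse of the 4 groups, with the mean and SD of 3 mice. The testosterone mice after withdrawal have the highest mean in each panel, 4941, 5042, 4803 and 4523.

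The fibrinogen genes lie together on chromosome 3, with 0 other coding genes between Fgg and Fga or between Fga and Fgb. Their promoter windows are shown because the 3 chains, which are assembled into 1 protein, were called higher together between the times in testosterone livers. As given above, these calls depended on scaling and on single mice. Capitals mark TTCNNNGAA in Fga and in Fgb, and CTGGGAA in Fgg and, closer to the start, in Fgb.

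Fga (chr3:83025903-83026152, plus strand): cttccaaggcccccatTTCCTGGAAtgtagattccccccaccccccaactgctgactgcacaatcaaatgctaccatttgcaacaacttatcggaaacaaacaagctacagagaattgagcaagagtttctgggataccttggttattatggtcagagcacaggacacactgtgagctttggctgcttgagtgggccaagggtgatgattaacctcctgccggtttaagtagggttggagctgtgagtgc
Fgb (chr3:83049864-83050113, minus strand): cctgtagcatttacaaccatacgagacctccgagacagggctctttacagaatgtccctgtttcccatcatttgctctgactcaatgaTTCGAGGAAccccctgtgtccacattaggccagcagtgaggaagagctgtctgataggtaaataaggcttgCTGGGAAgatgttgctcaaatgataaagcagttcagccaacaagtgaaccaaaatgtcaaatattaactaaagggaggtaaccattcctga
Fgg (chr3:83007474-83007723, plus strand): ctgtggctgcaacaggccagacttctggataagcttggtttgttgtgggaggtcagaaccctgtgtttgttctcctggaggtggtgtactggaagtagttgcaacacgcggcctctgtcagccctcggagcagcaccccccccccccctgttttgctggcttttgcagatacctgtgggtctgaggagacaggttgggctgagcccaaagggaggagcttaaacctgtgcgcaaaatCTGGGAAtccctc

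TTCNNNGAA lay 234 to 226 bases before the start in Fga and 162 to 154 in Fgb. CTGGGAA lay 91 to 85 bases before the start in Fgb and 13 to 7 in Fgg. No window held both motifs other than those of Fgb and F9, and in F9 the 2 matches overlap.

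The order of the mice within a group was uneven across these genes. Among vehicle livers at the end of treatment, mouse 2 with its acute phase signal was the highest for 17 of the 33 genes (51.5%, against 31.3% of all genes). Among testosterone livers after withdrawal, mouse 1 was the lowest for 24 (72.7%, against 33.3%), and among vehicle livers of that time mouse 1 was the highest for 18 (54.5%, against 33.2%). The members are made by the same hepatocytes and share these arrays, so they are not independent of each other.

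Other genes of haemostasis were taken from a separate list of 46, of which 24 were tested. At the end of treatment 10 were lower and 1 higher in testosterone livers, against 8.01% and 9.42% of all genes. The median log2 change of the 24 was -0.26. Ggcx, the carboxylase that all vitamin K-dependent factors need, averaged 51.1 ± 0.555 against 123 ± 40 (log2 -1.21, adjusted p = 0.00061), and Fgl1, a fibrinogen-like hepatocyte protein, 1241 ± 63.9 against 2387 ± 460 (-0.93, 0.00165). Met, the receptor for hepatocyte growth factor, changed by -1.15 (0.00314), and F2r, a thrombin receptor, rose (1.00, 9.26e-05). Habp2, a protease that can activate factor VII, changed by -1.34 (0.000154) on a probe set that can read other transcripts, and by 0.11 (0.611) with such probe sets left out. The probe sets of F2r, and of Lman1 named below, are of that kind too. With the actin ratio in the fit the calls of Ggcx, Met, F2r and Habp2 were lost, with adjusted p of 0.193 to 0.915, while Fgl1 was called in all 26 alternatives. After withdrawal 2 were higher and 1 lower, against 2.74% and 3.26% of all genes. These were F2r (0.56, 0.0132), Lman1, a cargo receptor for factors V and VIII (0.42, 0.0121), and Gas6, a vitamin K-dependent growth factor (-1.35, 9.19e-05). The F2r call of that time was lost without vehicle mouse 2 (0.0543) or vehicle mouse 3 (0.0592). With both testosterone mice with pancreatic enzyme signal left out, F2r changed by 0.37, on 1 remaining mouse of that group. The Lman1 call was lost without vehicle mouse 3 (0.0584), testosterone mouse 2 (0.0668) or mouse 3 (0.0635).

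Of 35 other protease inhibitors and binding serpins, 17 were tested. At the end of treatment 5 were lower and 1 higher, against 8.01% and 9.42% of all genes. Serpinb9, an inhibitor of granzyme B, changed by -0.88 (adjusted p = 0.00518), Serpina3n, an acute phase serpin, by -0.77 (0.0096), Serpinb6a by -0.47 (0.0333) and Fetub, the relative of Ahsg, by -0.29 (0.0191). Mug1, a broad protease inhibitor of the macroglobulin family, rose (0.52, 0.0115). With the actin ratio in the fit all 5 calls named here were lost, with adjusted p of 0.264 to 0.772. Without vehicle mouse 2 Serpina3n changed by -0.49. Serpinb6a was lost without vehicle mouse 1 or 2 or any 1 of the testosterone mice, with adjusted p of 0.069 to 0.116, and Fetub without vehicle mouse 1 (0.0652) or testosterone mouse 3 (0.0767). After withdrawal Serpina12 (1.82, 0.00114), Mug1 (0.67, 0.00465) and Serpina1c (0.30, 0.0382) were higher and Serpinb1a was lower (-1.45, 0.0177). Serpina1c belongs to a family of near-identical genes and may share their signal, and its call was lost in 14 of 26 alternatives, among them those without any 1 testosterone mouse of the end of treatment, vehicle mouse 2 or 3 or testosterone mouse 2 or 3 (0.052 to 0.161). The Serpinb1a call was lost without vehicle mouse 2 or 3 or testosterone mouse 1 or 2, with adjusted p of 0.0535 to 0.0955. With both mice with pancreatic enzyme signal left out, Serpinb1a changed by -0.49 and Mug1 by 0.66, on 1 remaining testosterone mouse.

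Among the acute phase genes, Orm3 changed by -3.49 (adjusted p = 6.43e-06) at the end of treatment and by -1.72 (0.00549) after withdrawal. Lcn2 changed by -3.81 (0.0105) and then by -1.47 (0.375), and Saa1 by -1.66 (0.145) and then by -0.18 (0.916). Without the high vehicle mouse 2 Lcn2 changed by -2.23 (0.00589) and Saa1 by -0.32 (0.584), so most of the Saa1 value rests on that mouse. Hp, haptoglobin, was not called at either time (-0.09, adjusted p = 0.526, and 0.26, 0.101).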

How the data were processed

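The deposited values are array intensities, 1 linear signal per probe set and mouse, made by the authors with GCOS and MAS5 per the submitters' processing notes, with versions not given. Per the labels' protocols, 5 µg of total liver RNA was labelled per array. The 2% trimmed mean was 100.05 on the arrays, so they had been scaled before deposit and were not scaled again. Of 22690 probe sets, 64 were controls, 20380 had 1 symbol in the platform annotation, 691 several and 1555 none; only those with 1 symbol were used.

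Signals under 4.84, the 25th percentile of non-control signals, were set to that floor before log2. Where a gene had several probe sets, the one brightest on average (log2) was used, and the gene was kept if above the array median on at least 3 arrays. Tests used limma 3.58.1 in R 4.3.3 (lmFit, contrasts.fit and trended eBayes), fitting the means of the 4 groups to all 12 arrays. They were two-sided, adjusted by Benjamini-Hochberg over 7217 genes and called at an adjusted p under 0.05. Folds are ratios of geometric means, and means ± SD are of linear signals. With 3 arrays per group, precision is limited. On data simulated for the comparison at the end of treatment, the test recovered 30% of changes of 0.5 log2 and 68% of changes of 1 log2. The changed genes, 50 of each size, were drawn from all 7217, dim ones included. These shares are thus not the power for the members.

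The 35 genes, the other lists and the tests were chosen with earlier results of these data known. All members are accounted for, members called in a testosterone comparison are given per mouse, and from the other haemostasis and inhibitor lists up to 4 called genes per direction and time are named by size of change. Alternatives changed the scaling, floor, filter, probe set choice, variance trend, samples fitted, replicate block and actin ratio, and left out each mouse. One, without both mice with pancreatic enzyme signal, was added after the data were seen. Promoter windows and the order of neighbouring genes are RefSeq's, on GRCm38.p6, and no genome build is named for the array files.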

Additional observations from a re-analysis of the deposited data

Results flagged for a closer look

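For Serpinf2 the testosterone effect differed between the times by 0.46 on the log2 scale (limma adjusted p = 0.0199): it was called lower at the end of treatment and changed by -0.06 after withdrawal. With the actin ratio in the fit the difference was 0.35 (adjusted p = 0.965).

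Fgb and Hpx were singled out because all testosterone mice lay below all vehicle mice at the end of treatment and above them after withdrawal. The difference between the times was 0.19 for Fgb (limma adjusted p = 0.187) and 0.30 for Hpx (adjusted p = 0.0729), so neither passed the test, and their explanation was not tested.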

How the results depend on the processing

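Of the values given per gene, 4 reversed in sign where the gene was called in the fit used above, in the alternative or in both. Sign changes of values called in neither fit were not counted. Proz at the end of treatment changed by -0.60 (limma adjusted p = 0.000675) with the mean of its probe sets, against 0.00 on the brightest one. With shared probe sets left out, Habp2 changed by 0.11 at the end of treatment, by -0.37 for the difference between times and by 0.77 over time in vehicle mice. Counts are given below as genes and then members, except that fits of every probe set count probe sets in place of genes.

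At the end of treatment (1258 and 12), 2185 probe sets were called with every probe set tested, which is not a count of genes. Median centring left 7 members, and the actin ratio in the fit left 78 and 0 (7 members at an unadjusted p under 0.05). Leaving out single mice gave 789 to 1360 genes and 9 to 13 members. After withdrawal (433 and 4), the counts were 286 genes unfiltered, 263 and 1 under the actin ratio, and 250 and 2 without both mice with pancreatic enzyme signal. Members called were 2 with median centring and 2 with no variance trend, and single mice left out gave 236 to 634 and 1 to 5. For the difference between times (158 and 1), the counts were 37 genes with no filter, and 554 probe sets and 2 members with every probe set. They were 72 and 0 with no variance trend (8 members at an unadjusted p under 0.05), and 1 and 0 with the actin ratio (1 member). Members called were 2 above the median on all arrays, and single mice left out gave 26 to 542 and 0 to 6.

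Over time in vehicle mice (1288 and 7), the counts were 792 genes unfiltered, and 232 and 1 under the actin ratio. Members called were 2 with only the groups compared and 2 with no variance trend, and single mice left out gave 584 to 1386 and 1 to 8. Over time in testosterone mice (785 and 7), they were 490 and 3 with no filter, 1186 genes with every probe set, 110 and 0 with the actin ratio (1 member at an unadjusted p under 0.05) and 313 and 2 without both mice. Members called were 0 with median centring, quantile normalization or no variance trend (3, 6 and 10 at an unadjusted p under 0.05) and 1 with only the groups compared, and single mice left out gave 454 to 888 and 0 to 9. The cause of these shifts was not tested.

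Median centring turned 198 higher and 235 lower genes after withdrawal into 265 and 167, 795 and 493 over time in vehicle mice into 475 and 710, and 402 and 383 in testosterone mice into 292 and 453.

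Replicate numbers did not pair the mice: same-numbered deviations correlated at -0.171 to 0.0591 over 18 pairs. With the replicate block the counts were 1025 and 11, 355 and 3, 55 and 0 (13 members at an unadjusted p under 0.05), 1021 and 5, and 624 and 1, in the order above.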
